A study of Mus musculus with 78 samples.

Results

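Oligodendrocyte and myelin genes were followed through 7 dissected brain regions of mice that had drunk alcohol. The 32 genes were taken by name from a list of proteins of the myelin sheath, glial gap junctions, enzymes of myelin lipids, transcription factors of the lineage, secreted and metabolic proteins, and receptors. All 32 were present in both deposited count tables, which share 55367 gene symbols. Each library was summarised by CPM, the gene's count scaled by the library's total count, and by the myelin mean, the average over the 32 genes of log2(CPM + 1). The questions asked of them were how much myelin RNA each region held, how far animals differed, and whether ACSS2 knockout and wild-type mice differed.

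The study asked how the loss of ACSS2, the enzyme that makes acetyl-CoA from acetate, bears on voluntary drinking in mice. Poly(A) RNA was sequenced from the dorsal striatum, ventral striatum, amygdala, dorsal hippocampus, ventral hippocampus, cortex and prefrontal cortex of 12 adult mice in 78 libraries. The mice were 3 knockout (KO) males, 3 wild-type (WT) males, 3 KO females and 3 WT females of the strain C57BL6/J. The KO was constitutive, so every cell type lacked the gene: Cas9 with a pair of guides removed exons 3 to 7 of Acss2 in embryos, and the founders were backcrossed for 3 generations. Every animal, KO and WT alike, was single-housed and drank ethanol at 15% by volume in the drinking-in-the-dark schedule, with a habituation period of 1 week, sessions of 2 h on days 1 to 3 and of 4 h on day 4. The schedule ran first with ethanol and water and then with ethanol alone in the session. All groups share the ethanol exposure. Ages beyond adult are not given in the labels. By the labels, libraries with 1 mouse number came from 1 mouse, and different numbers are separate mice. In the prefrontal cortex library of mouse 23 the sex-chromosome genes go against the label, as given below.

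Oligodendrocytes wrap axons in myelin, a stack of membrane that lets impulses travel fast, and white matter tracts are packed with it. They arise from precursor cells that persist in the adult brain, and the transcription factors Sox10, Olig1, Olig2 and Myrf take them from precursor to myelinating cell. Since myelin RNAs are abundant in white matter and scarce in neurons, they are a common readout of how much white matter a dissected piece of brain holds. In pieces of whole tissue, fewer oligodendrocytes and less RNA per oligodendrocyte cannot be told apart.

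Promoters of 3 myelin protein genes are shown because these genes moved together across libraries and because Sox10 and Myrf, which are members too, are known to act on myelin genes. They come from a RefSeq table for GRCm38.p6 and end just before the start of the gene in GENCODE M21. That start lies upstream of the RefSeq start for Mobp and Cnp, so their stretches are 215 bases long, while that of Mog has 250. Capitals mark matches, on either strand, to the short SOX core ACAAAG (also written CTTTGT on the other strand), to its other form AACAAT, or to CTGGNAC, a Myrf core in which N is any base. The Mobp stretch is chr9:120149492-120149706 on the plus strand, that of Mog chr17:37023399-37023648 on the minus strand and that of Cnp chr11:100574689-100574903 on the plus strand.
Mobp: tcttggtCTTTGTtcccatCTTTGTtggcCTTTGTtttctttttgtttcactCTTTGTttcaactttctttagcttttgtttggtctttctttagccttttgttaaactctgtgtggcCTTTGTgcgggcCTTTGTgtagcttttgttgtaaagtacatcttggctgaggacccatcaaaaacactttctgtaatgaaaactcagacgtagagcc
Mog: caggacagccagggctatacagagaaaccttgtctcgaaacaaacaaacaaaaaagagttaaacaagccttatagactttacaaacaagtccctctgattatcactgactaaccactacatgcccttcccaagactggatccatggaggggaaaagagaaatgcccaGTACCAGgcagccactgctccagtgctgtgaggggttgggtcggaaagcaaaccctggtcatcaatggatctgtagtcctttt
Cnp: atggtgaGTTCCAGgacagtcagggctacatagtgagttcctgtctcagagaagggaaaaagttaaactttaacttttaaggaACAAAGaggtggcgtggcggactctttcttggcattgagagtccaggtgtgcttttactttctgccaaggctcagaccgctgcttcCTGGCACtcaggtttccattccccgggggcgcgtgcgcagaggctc
The Mobp stretch held 6 matches to ACAAAG, the Mog stretch 1 to CTGGNAC, and the Cnp stretch 1 to ACAAAG and 2 to CTGGNAC. The table held upstream stretches of 250 bases for 23 of the 32 members. Among them ACAAAG was found in 8 (34.8%), against 18.6% of all 27025 genes in the table, and AACAAT in 4 (17.4%), against 10.9%. CTGGNAC was found in 9 (39.1%), against 17.9%, and CAGCTG, an E-box of the kind that Olig factors read, in 1 (4.35%), against 14.7%. The members' stretches had a median GC content of 59.6%, against 52.4% for all. These are matches of letters and not sites of binding, and a few bases of a stretch can match by base composition.

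The libraries fell into a deeper set of 47 (both striata, amygdala and dorsal hippocampus, total counts 4454420 to 14487778) and a shallower set of 31 (prefrontal cortex, cortex and ventral hippocampus, 629635 to 1228828). Region and depth cannot be told apart between the sets, so values across them are described and tests were run within each. Acss2 itself was 0.971 to 13.96 CPM in the 40 KO libraries and 35.9 to 73.8 CPM in the 38 WT libraries, with no overlap. The prefrontal cortex library labelled female, WT and mouse 23 held 0 counts of Xist and 60 of the Y-linked gene Ddx3y. In 5 libraries, markers of neurons went against the labelled region. This was read from the mean log2(CPM + 1) of 9 striatal projection neuron genes and of 8 cortical excitatory neuron genes. A striatal library was marked where its cortical mean was the higher, and a cortical or hippocampal library where its striatal mean was. Amygdala libraries were not judged by this rule (female KO mouse 6 there: striatal 7.39, cortical 5.81). In the ventral striatum, male KO mouse 10 (striatal 6.29, cortical 6.11) and male WT mouse 13 (striatal 5.26, cortical 4.57) were not marked. Their striatal means lay below the 7.06 to 9.42 of the others. The 2 dorsal striatum libraries of male KO mouse 10 (striatal 4.88, cortical 6.93) and female WT mouse 23 (striatal 3.97, cortical 6.82) had low striatal means, against 8.46 to 9.46 in the other 10. The ventral hippocampus library of female KO mouse 6 had a striatal mean of 8.35, against 3.24 to 4.29 in the other 11. In the prefrontal cortex, male KO mouse 1 (striatal 6.92, cortical 6.20) and female KO mouse 5 (striatal 7.41, cortical 6.51) carried more striatal than cortical signal. All libraries were kept under their labels. The main results that rest on the 5 marked libraries or the prefrontal library of mouse 23 are also given without them.

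**Figure D1:**
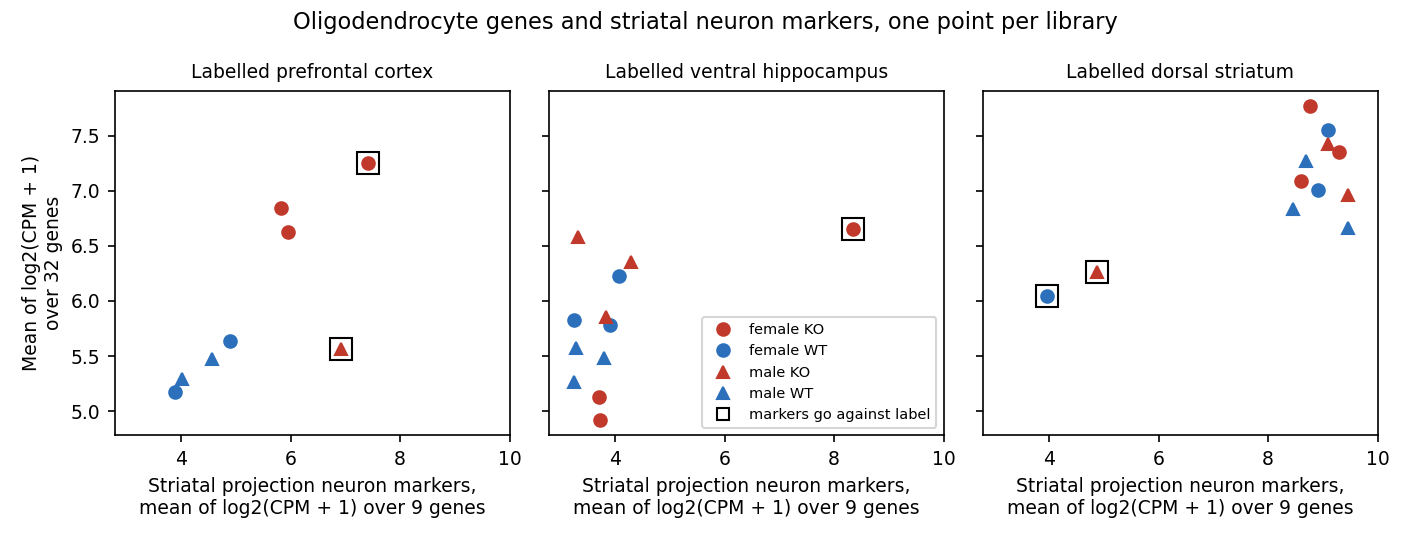
Mean log2(CPM + 1) of the 9 striatal projection neuron genes (x axis) against the myelin mean (y axis) in each library labelled prefrontal cortex, ventral hippocampus or dorsal striatum, with color for genotype and shape for sex. Squares mark the 5 libraries whose neuron markers went against the label; the ventral hippocampus library of female KO mouse 6 lies at 8.35, far from the 3.24 to 4.29 of the others of its region.

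Myelin genes were highest in the dorsal striatum. The myelin mean was 7.02 ± 0.511 there (SD, n = 12 mice) and 7.19 ± 0.343 (n = 10) without the 2 libraries of doubtful region. It was 6.51 ± 0.443 in the ventral striatum (n = 12), 6.36 ± 0.669 in the dorsal hippocampus (n = 12) and 5.83 ± 0.878 in the amygdala (n = 11). In the shallower set it was 5.98 ± 0.7999 in the prefrontal cortex (n = 8), 5.80 ± 0.563 in the ventral hippocampus (n = 12) and 5.55 ± 0.346 in the cortex (n = 11). Without the libraries of doubtful region it was 5.84 ± 0.715 in the prefrontal cortex (n = 6) and 5.73 ± 0.519 in the ventral hippocampus (n = 11). In the order of the 7 regions, each region differed from the next by less than the larger of the SDs of the pair. The closest call was dorsal against ventral striatum, 0.510 apart with a larger SD of 0.511. With the 2 dorsal striatum libraries of doubtful region left out, these regions, at 7.19 ± 0.343 and 6.51 ± 0.443, were further apart than either SD.

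**Figure D2:**
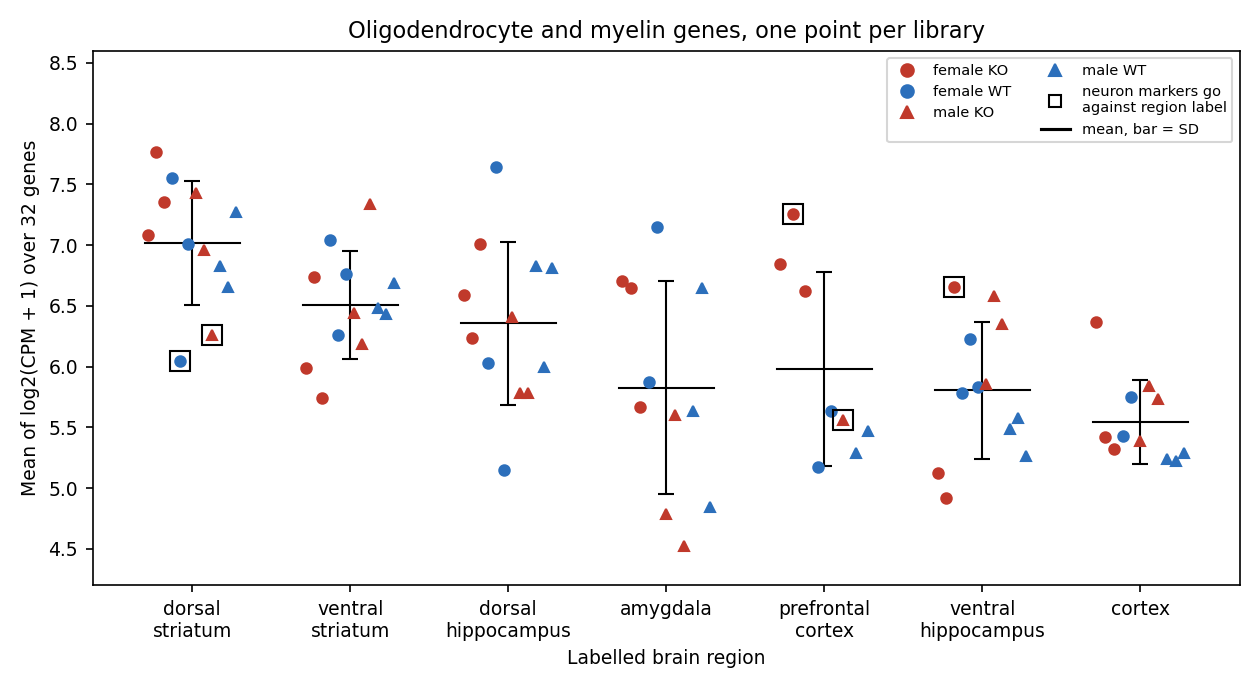
Myelin mean (mean log2(CPM + 1) of the 32 genes, y axis) in each of the 78 libraries by region, with KO and WT and the sexes told apart; bars are the mean and SD of a region. The dorsal striatum is highest, at 7.02, and neighbouring regions overlap.

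The dorsal striatum had the highest median CPM for 27 of the 32 members, and the cortex the lowest for 21. Without the libraries of doubtful region these counts were 28 and 16. Between the regions with the highest and the lowest median, the ratio of CPM was 6.06 for Anln, a protein that binds actin and septins, 5.38 for Ermn, which shapes the oligodendrocyte cytoskeleton, 5.26 for Trf, the iron carrier transferrin, and 5.02 for Mobp, a protein of compact myelin. Among the lineage transcription factors it was 4.81 for Myrf, 2.66 for Nkx6-2, 1.89 for Sox10, 1.56 for Olig1 and 1.49 for Olig2. The 5 members not highest in the dorsal striatum were Olig1, Olig2, Sox10, Nkx6-2, a homeobox factor of the lineage, and Ppp1r14a, an inhibitor of myosin phosphatase.

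Levels between genes are given per kilobase of exon. Mbp, the protein that glues the inner faces of myelin together, led with 201.5 CPM per kb as the median over the regions. Qdpr, which recycles tetrahydrobiopterin, followed with 105, then Mobp with 87.3 and Car2, carbonic anhydrase, with 66.5. Tmem125 was lowest with 2.14 CPM per kb, and it was at 0 counts in 1 library. In the shallower set, 3 counts correspond to between 2.44 and 4.76 CPM, which limits what can be said of Tmem125, Nkx6-2 and Gjb1 there. Hapln2, Opalin and Ppp1r14a also came down to 3 counts in the cortex.

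In CPM, Mbp (chromosome 18, 82475146 to 82585637, plus strand, GRCm38) ranged in the dorsal striatum from 1773 through a median of 4102 to 6623. In the ventral striatum it was 1337, 2279 and 4704 (lowest, median, highest), in the amygdala 402, 1175 and 3715, and in the dorsal hippocampus 775, 2092 and 6933. Every pair of these regions overlapped, and the highest library of all was a dorsal hippocampus. In the shallower set it was 691, 1136 and 4231 in the prefrontal cortex, 1185, 1335 and 3406 in the cortex, and 687, 1707 and 4371 in the ventral hippocampus. With the libraries of doubtful region left out, Mbp was 2970, 4552 and 6623 in the dorsal striatum, its highest value in the prefrontal cortex was 3051, and its median and highest values in the ventral hippocampus were 1638 and 2537.

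Mobp (chromosome 9, 120149707 to 120181484, plus strand) had CPM of 753, 2022 and 3075 in the dorsal striatum and of 99.6, 424 and 1478 in the amygdala. Mog, the outermost myelin glycoprotein (chromosome 17, 37010743 to 37023398, minus strand), had 48.6, 139 and 224 CPM in the dorsal striatum and 10.3, 32.5 and 121 CPM in the amygdala. For both genes, the dorsal striatum median lay above the highest amygdala library, though the ranges overlapped. With the 2 dorsal striatum libraries of doubtful region left out, the lowest there were 1317 CPM for Mobp and 102 CPM for Mog, which still overlapped the amygdala. Olig1 ran the other way, with 50.9, 72.9 and 119 CPM in the dorsal striatum, 83.5, 107 and 175 in the amygdala and 66.4, 114 and 217 in the dorsal hippocampus.

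**Figure D3:**
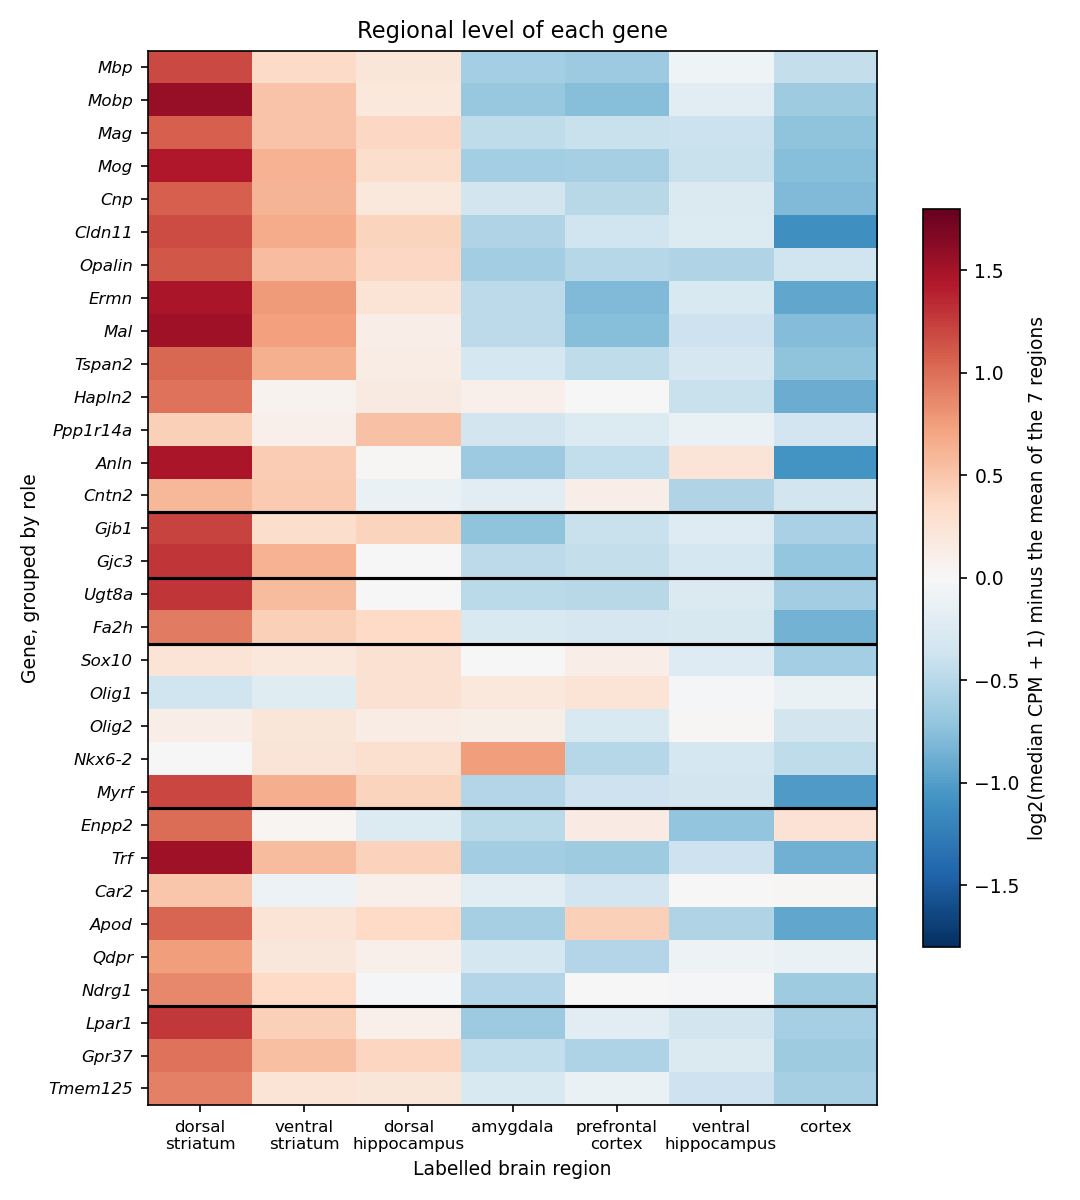
Color shows log2 of the median CPM + 1 of each of the 32 members (rows, grouped by role) in each labelled region (columns), minus the member's mean over the 7 regions. Most rows are highest in the dorsal striatum; Olig1 is lowest there.

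Between regions of the deeper set, most myelin protein genes were higher in the dorsal striatum than in the amygdala. Under edgeR's quasi-likelihood test with Benjamini-Hochberg adjustment over all genes (threshold 0.05), 26 of 32 members were higher and 2 lower. The regions differ widely in general: 27.8% of 14593 genes were called higher and 27.9% lower. The members' median log2 fold change was 1.24, against 0.011 over all genes. Among the 14 myelin proteins 13 were higher and none lower, with a median of 1.45: Mobp by 1.84 ± 0.35 (log2, SE), Anln by 1.77 ± 0.30, Mal, a proteolipid of myelin rafts, by 1.72 ± 0.30, Mog by 1.60 ± 0.31, Mbp by 1.49 ± 0.30, and Cnp and Mag by 1.24 each. The gap junction gene Gjc3 (1.41 ± 0.23), which codes connexin 29, and the receptor gene Lpar1 (1.73 ± 0.28), for lysophosphatidic acid, had the smallest adjusted p-values along with Anln and Mal, from 1.65e-06 to 5.48e-06 (edgeR).

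The transcription factors split. Myrf, the switch of the myelinating stage, was 1.37 ± 0.26 higher in the dorsal striatum than in the amygdala. Olig1 was lower (log2 difference -0.58 ± 0.14), as was Nkx6-2 (-0.68, adjusted p 0.0347, edgeR), while Sox10 (0.20, adjusted p 0.356) and Olig2 (0.02, adjusted p 0.895) did not pass the test. Among 12 precursor markers 4 were higher and 6 lower. Among 51 tested myelin genes outside the 32, 38 were higher and 1 lower. Without the libraries of doubtful region 27 members were higher and 1 lower, beside 59.3% of genes called in either direction.

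Against the dorsal hippocampus, 20 members were higher in the dorsal striatum and 1 lower, with 27.5% of genes higher and 27.1% lower, and the members' median was 0.69 (0.018 over all genes). Anln (1.16 ± 0.29), Mal (1.14 ± 0.29), Ugt8a, which makes the galactolipid galactosylceramide (1.04 ± 0.25), Mobp (1.00 ± 0.33), Gjc3 (0.95 ± 0.22), Mog (0.88), Cnp (0.79), Myrf (0.73) and Mbp (0.69) were higher. Olig1 was lower by 0.72 ± 0.14 on the log2 scale, which had the smallest adjusted p of the members (3.57e-05, edgeR). Mag had a difference of 0.59 (adjusted p 0.0612), Sox10 of -0.05 and Olig2 of -0.13. Without the libraries of doubtful region 24 members were higher and 1 lower, beside 57.8% of genes in either direction. With the mouse as a block 14 were higher and 1 lower, beside 7968 of 14593 genes called. Leaving out each mouse in turn gave 15 to 27 called members in both directions together.

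Against the ventral striatum, 6 members were higher in the dorsal striatum and none lower, with 5.58% of genes higher and 8.15% lower. These were Anln (0.97 ± 0.29, adjusted p 0.0202, edgeR), Hapln2, a link protein of nodes of Ranvier (0.95 ± 0.31), Trf (0.87 ± 0.30), Apod, a lipid carrier (0.79 ± 0.27), Car2 (0.49) and Gjb1, the gap junction protein connexin 32. Anln, Trf, Apod and Car2 are among the 10 members that other brain cells also express in quantity. Mobp (0.90, adjusted p 0.0591) and Mbp (0.79, adjusted p 0.0607) did not pass, nor did Mog (0.70), Mag (0.53), Cnp (0.48), Myrf (0.41), Sox10 (0.17), Olig1 (-0.02) or Olig2 (-0.05). The members' median was 0.53, against 0.0014 over all genes. This count rested on single mice. It was 18 without mouse 10, 0 without mouse 1, 5 or 6, 1 without mouse 2, 4 or 11, and 2 without mouse 3, 12 or 13. Here and in the other region contrasts, counts with a mouse left out are of members alone. Calls over all genes can shift in the same fits. Without the libraries of doubtful region 16 members were higher, beside 22.6% of genes in either direction. With the mouse as a block 2 were, beside 1938 of 14593 genes in either direction.

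Markers of the choroid plexus, a tissue within the ventricles whose epithelium also makes much Enpp2 and Trf, moved with this contrast. Of 11 tested, 6 were higher in the dorsal striatum, with a median of 3.16. Their mean per library ranged from 0.29 to 6.16 in the dorsal and from 0.95 to 2.15 in the ventral striatum. Their part in the members' differences was not tested. Enpp2, the enzyme autotaxin, ranged from 249.3 to 2231 CPM in the dorsal and from 116 to 470 CPM in the ventral striatum, and it had the largest spread of all members between libraries of a region (SD 1.06 on the log2 scale).

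The ventral striatum had more myelin RNA than the amygdala: 19 members were higher and 1, Olig1 (-0.56 ± 0.14), lower, with 23.1% and 23.8% of genes, and a median of 0.71 (0.0033 over all genes). Mal (1.18 ± 0.30), Lpar1 (1.07 ± 0.28), Myrf (0.97 ± 0.26), Mobp (0.95), Mog (0.89), Gjc3 (0.88 ± 0.23), Cnp (0.77) and Mag (0.70) were among them. Mbp (0.70, adjusted p 0.0525, edgeR), Sox10 (0.03) and Olig2 (0.07) were not. Choroid plexus markers went the other way, with 7 of 11 lower. Without mouse 10 the members' count was 13.

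The ventral striatum and the dorsal hippocampus were not told apart for most members. Tspan2, a tetraspanin of early myelination, was higher (0.51 ± 0.22, adjusted p 0.0475, edgeR) and Olig1 lower (-0.69 ± 0.14), where 26.8% of genes were higher and 27% lower. The other 8 genes named throughout, Mbp, Mobp, Mag, Mog, Cnp, Sox10, Olig2 and Myrf, had log2 differences from -0.22 (Sox10) to 0.33 (Myrf). The members' median was 0.078, against 0.0087 over all genes. Choroid plexus markers were lower in the ventral striatum for 8 of 11. With the mouse as a block Olig1 was called and Tspan2 was not (adjusted p 0.0822, edgeR), beside 7896 of 14593 genes called. Called members numbered 6 without mouse 23, 5 without mouse 6 and 1 without mouse 2, 3, 5 or 13.

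The amygdala was lower than the dorsal hippocampus for 10 members and higher for none, with 19.1% of genes lower and 20% higher. The median was -0.56 (-0.0076 over all genes). Apod (-0.94 ± 0.27), Opalin, a membrane protein of mature oligodendrocytes (-0.86 ± 0.28), Gjb1 (-0.86 ± 0.30), Mobp (-0.84 ± 0.34), Mbp (-0.80 ± 0.30), Gpr37, a receptor that restrains differentiation (-0.72 ± 0.21), and Myrf (-0.64 ± 0.26) were lower. Mog (-0.71), Mag (-0.64), Cnp (-0.45), Sox10 (-0.25), Olig2 (-0.16) and Olig1 (-0.14) did not pass. With the mouse as a block 5 members were lower, beside 5705 of 14593 genes called in either direction. The count was 25 without mouse 24, 2 without mouse 13 and 3 without mouse 1, 3, 6 or 23. Mouse 24 had the highest myelin mean of the amygdala and the lowest of the dorsal hippocampus.

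In the shallower set, 3 of 4 tested transcription factors and 2 of 14 myelin proteins were higher in the prefrontal cortex than in the other cortex samples. Of 30 tested members 9 were higher in the prefrontal cortex and none lower, with 19.5% of genes higher and 19.9% lower, and a median of 0.48 (0.015 over all genes). Nkx6-2 and Tmem125 were too low to test, and Hapln2 came down to 3 counts in the cortex. Apod (1.09 ± 0.25), Hapln2 (1.04 ± 0.33), Myrf (0.92 ± 0.29), Sox10 (0.84 ± 0.21), Ndrg1, whose loss demyelinates nerves (0.64 ± 0.19), and Olig1 (0.38 ± 0.12) were higher, as were Cldn11, a tight junction protein of myelin (0.90), Fa2h, which hydroxylates myelin fatty acids, and Trf. Mbp (-0.22 ± 0.27), Mobp (-0.12 ± 0.32), Mag (0.59), Mog (0.47), Cnp (0.44) and Olig2 (0.16) did not pass edgeR's test. Of 9 tested precursor markers 8 were higher. Without the prefrontal libraries of doubtful region and the ventral hippocampus library of mouse 6, 7 members were higher and 1 lower, beside 35% of genes called. Leaving out the library of mouse 23 gave 10 higher and none lower, beside 3988 of 10728 genes called. With the mouse as a block 10 were higher and none lower (3843 of 10619 genes called), and with no low-count filter 19 were higher and 2 lower (4285 of 27418 genes).

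The prefrontal cortex and the ventral hippocampus differed for 3 members: Enpp2 (0.67 ± 0.22) and Cntn2, an adhesion protein at the juxtaparanode (0.62 ± 0.18), were higher in the prefrontal cortex and Car2 (-0.37 ± 0.14) lower. In all, 15.2% of genes were higher and 15.7% lower, and the members' median was 0.13 (0.0041 over all genes). The 9 genes named throughout ranged from -0.39 (Mbp) to 0.48 (Sox10, adjusted p 0.0553, edgeR). Without the libraries of doubtful region 4 were higher and 1 lower, beside 27.9% of genes, and without mouse 5 there were 5 calls in all. Leaving out the library of mouse 23 gave 2 higher and none lower, beside 3085 of 10728 genes.

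The cortex had less of 4 members than the ventral hippocampus and more of 1, Enpp2 (1.19 ± 0.20), where 14.5% of genes were lower and 14.8% higher. Ndrg1 (-0.71 ± 0.18), Apod (-0.73 ± 0.23), Tspan2 (-0.57 ± 0.20) and Cldn11 (-0.70, adjusted p 0.0498, edgeR) were lower. The 9 genes named throughout were all negative, from -0.63 (Myrf) to -0.18 (Mbp), and did not pass. The median was -0.35 (-0.0070 over all genes). Without the ventral hippocampus library of mouse 6 and the prefrontal libraries of doubtful region, 1 member was higher and 2 lower, beside 29.7% of genes. With the mouse as a block 1 was higher and 2 were lower, beside 2924 of 10619 genes called. The calls in both directions numbered 13 without mouse 4, 10 without mouse 5, 3 without mouse 2, 3, 10 or 23 and 2 without mouse 6.

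The members rose and fell together from library to library. With the region means removed, all 496 pairs of members had a positive Pearson correlation of log2(CPM + 1) over the 78 libraries, with a median of 0.817, and 286 pairs lay above 0.8. Libraries of 1 mouse and of 1 group enter together here, and the values share each library's total. Trf (0.980), Mal (0.977) and Cnp, an enzyme of non-compact myelin (0.976), followed the mean of the other members most closely. Olig1 (0.768), Enpp2 (0.708) and Olig2 (0.649) followed it least. Olig1 and Olig2 also had the smallest spread between libraries of a region, with SDs of 0.354 and 0.357 on the log2 scale.

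Outside the list, 10815 genes averaged at least 5 CPM in every region. Among those most like the myelin mean by the same measure were Tmem88b (r = 0.961), Gatm, an enzyme of creatine synthesis (0.957), Tmem63a, an ion channel (0.944), Septin4, a filament protein (0.944), Plekhb1 (0.935), Galnt6 (0.933) and Bcas1, a marker of young myelinating cells (0.932). The mean of the 12 precursor markers followed the myelin mean less closely (r = 0.540), and so did choroid plexus markers (0.544), striatal projection neuron genes (0.373) and astrocyte genes (0.326). General neuron genes did not follow it (-0.103).

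Much of the spread lay between libraries of the same group. Of the total sum of squares of the myelin mean over the 78 libraries, 40.05% lay between regions and 25.9% between the sex-by-genotype groups within regions. These shares are not corrected for the number of groups, which was 28. Groups this small take up a share even where sex and genotype make no difference. A further 34.1% lay between libraries of a group, each from another mouse, with a pooled SD of 0.552. A mouse gave at most 1 library per region, so animal, dissected piece and library cannot be told apart. A mouse rich in myelin RNA in a region was not regularly so in the others. Over the 21 pairs of regions, the correlation of the mice's deviations from their region's mean was positive in 7, with a median of -0.166 and a range from -0.505 to 0.504. Mouse 24, a WT female, was 1.32 above the mean of the amygdala and 1.21 below that of the dorsal hippocampus (-1.21).

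The KO and WT mice were compared within each sex and region. In 12 of 13 comparisons no member passed edgeR's test. The exception was the female prefrontal cortex, where 21 of 32 members were higher in KO and none lower. There 45 of 11056 genes were higher, 0.407%, and 0.0452% lower. At an unadjusted p under 0.05 there were 30 members and 9.08% of genes. All 32 members had a positive log2 fold change, with a median of 1.63 (-0.0037 over all genes). The 13 medians over all genes lay between -0.032 and 0.020.

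In the female prefrontal cortex, Trf (chromosome 9, 103204001 to 103230444, minus strand) was 508, 662 and 458 CPM in KO mice 4, 5 and 6, and 93.1 and 148 CPM in WT mice 11 and 23. All KO libraries lay far above both WT libraries (log2 fold change 2.17 ± 0.22, adjusted p 0.00125, edgeR). Anln was 95.0, 93.2 and 75.7 CPM in KO and 12.2 and 22.03 CPM in WT (2.39 ± 0.27, adjusted p 0.00134, edgeR). Mbp was 3051, 4231 and 2650 CPM in KO and 691 and 1298 CPM in WT (1.72 ± 0.25, adjusted p 0.00738, edgeR). Mog was 102, 123 and 77.3 CPM in KO and 17.1 and 35.5 CPM in WT (1.98 ± 0.29). The groups were apart for these 4 genes, and the values of mouse 5 were the highest for 3 of them. For 30 members all KO libraries lay above both WT libraries, which 12.5% of genes did. The other members were Apod and Olig2.

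By role, 12 of the 14 myelin proteins were higher, with Mobp (1.97 ± 0.28), Mal (2.00 ± 0.28), Mag (1.85 ± 0.28) and Cnp (1.54 ± 0.20) beside those above. Of the lipid enzymes both were, with Ugt8a at 2.36 ± 0.41, and of the gap junction genes 1, Gjc3. Of the 5 transcription factors 1 was, Myrf (1.70 ± 0.27, adjusted p 0.0115, edgeR). Sox10 (0.75, adjusted p 0.244), Olig1 (0.44, adjusted p 0.384) and Olig2 (0.81, adjusted p 0.613) were not. Of the secreted and metabolic proteins 3 of 6 were, with Apod at 0.21 (adjusted p 0.911), and of the receptors 2 of 3. Among 46 myelin genes outside the list 7 were higher and all 46 were positive, with a median of 1.05. None of 10 precursor markers was called by edgeR (2 at an unadjusted p under 0.05), with a median of 0.32.

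The female prefrontal result sits on libraries that stand apart. The WT group of 2 includes the library of mouse 23, whose sex-chromosome genes go against its label. Without it 22 members were called, beside 2.71% of genes, and without the other WT library, mouse 11, 12 were, beside 0.194%. Without KO mouse 5, a library of doubtful region, 2 members were called, Trf and Anln, beside 0.0281%. Without KO mouse 4 the count was 14, beside 0.246%, and without KO mouse 6 it was 21, beside 0.63%. The striatal neuron genes moved with the members: all 9 were positive in KO, 2 of them called, with a median of 2.12. Their library means were 5.82, 7.41 and 5.96 in KO and 3.88 and 4.89 in WT, with KO above WT throughout. All 12 astrocyte genes were negative and none was called (5 at an unadjusted p under 0.05). The library means of mural and leptomeningeal genes (-0.785), GABA neuron genes (-0.374) and endothelial genes (-0.259) were lower in KO, with every KO library below both WT libraries. The part of these other cells and of the piece of tissue taken in the members' difference was not tested. The myelin mean was 6.91 ± 0.320 in KO (n = 3) and 5.40 ± 0.330 in WT (n = 2), 1.51 apart, and the difference lay between 1.27 and 1.74 with a library left out.

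The male prefrontal cortex had 1 KO library, so it was described and not tested within sex. Mbp was 968 CPM in KO mouse 1 and 973 and 731 CPM in the WT mice, and Mog 30.7 CPM in KO and 22.2 and 18.9 CPM in WT. Trf was 163 CPM in KO and 150 and 131 CPM in WT. The KO library lay near the WT libraries for Mbp and a little above them for Mog and Trf. Its striatal neuron mean was 6.92, against 4.56 and 4.01 in the WT libraries, and its region is in doubt. Its myelin mean was 5.56, against 5.47 and 5.29 in the WT libraries. How the striatal and the myelin genes are related here was not tested.

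**Figure D4:**
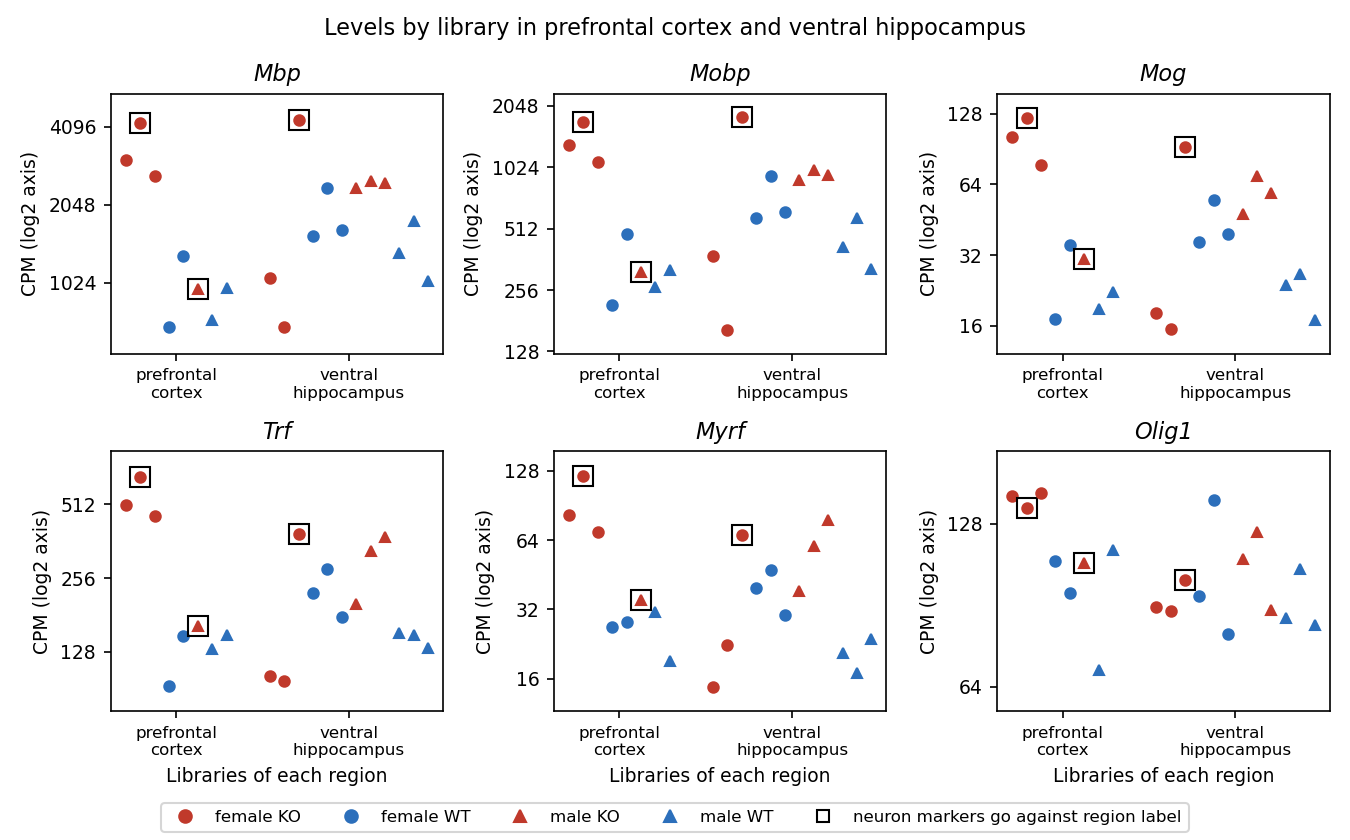
CPM (y axis, log2 scale) of Mbp, Mobp, Mog, Trf, Myrf and Olig1 in each prefrontal cortex and ventral hippocampus library, 1 point a library, by sex and genotype, with squares on libraries whose neuron markers go against the label. In the female prefrontal cortex the KO libraries of Trf, 458 to 662 CPM, lie above both WT libraries, and in the female ventral hippocampus KO mouse 6 lies apart from the other KO mice.

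In the male ventral hippocampus most members were higher in KO without passing the adjusted test. None of 29 was called by edgeR, where 0.00996% of genes were, while 19 had an unadjusted p under 0.05, as did 8.08% of genes. DESeq2 called 3, among 5 of 10040 genes. The median was 0.76 (-0.010 over all genes), and for 18 members every KO library lay above every WT library, against 7.03% of genes. Mog was 48.0, 58.8 and 69.7 CPM in the 3 KO mice and 26.7, 16.9 and 23.8 CPM in the 3 WT mice, with the groups apart (1.37 ± 0.25, adjusted p 0.216, edgeR). Mobp had a difference of 1.06 ± 0.21 (adjusted p 0.216), Mag of 1.31 and Myrf of 1.46. Olig1 had the smallest of the 9 genes named throughout, 0.20. With no low-count filter 16 members were called, beside 161 of 21446 genes, and without KO mouse 1 there was 1, beside 0.0493% of genes. The myelin mean was 6.26 ± 0.371 in KO and 5.44 ± 0.158 in WT (n = 3 each). All 12 astrocyte and all 9 microglia genes were negative, and none of them was called (5 and 3 at an unadjusted p under 0.05).

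In the female ventral hippocampus the members' fold changes were mixed, with 11 of 29 positive, and this rested on 1 library. None of 29 was called by edgeR or DESeq2, and none had an unadjusted p under 0.05, against 0.00993% and 3.93% of genes. The median was -0.097. The myelin mean was 5.57 ± 0.946 in KO and 5.95 ± 0.244 in WT (SD, n = 3 each), a KO minus WT difference of -0.379. That difference lay between -0.922 and -0.057 with a library left out. Mog was 18.2 and 15.5 CPM in KO mice 4 and 5 and 92.4 CPM in KO mouse 6, the library with striatal markers, against 36.3, 55.2 and 39.5 CPM in WT. The WT libraries thus lay between the KO libraries. Without mouse 6 the median was -1.04, and 22 of 29 members had both KO libraries below every WT library, against 10.5% of genes. Of these Cldn11 was called (-1.50 ± 0.19), beside 0.0191% of genes.

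**Figure D5:**
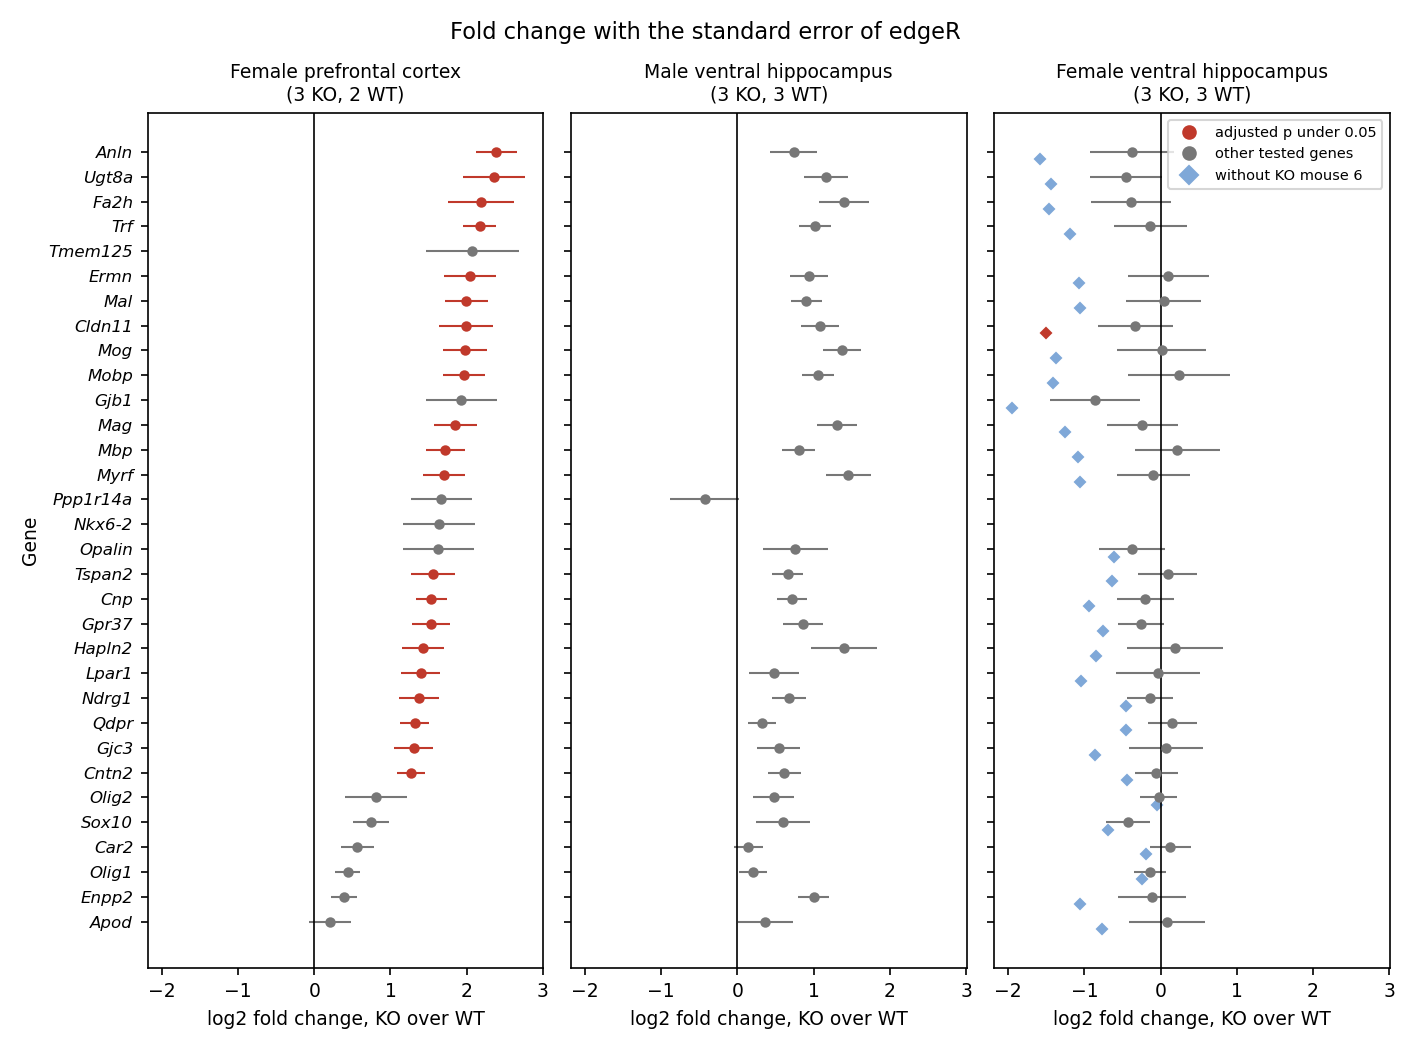
Log2 fold change, KO over WT, of each tested member in the female prefrontal cortex, the male ventral hippocampus and the female ventral hippocampus, with bars of 1 SE from edgeR; red marks an adjusted p under 0.05 and diamonds the female ventral hippocampus without KO mouse 6. In the female prefrontal cortex 21 members are red and the median is 1.63; without mouse 6 the female ventral hippocampus median moves from -0.097 to -1.04.

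In the other within-sex comparisons none of the members was called by edgeR or DESeq2. In the male dorsal hippocampus (0.00721% of genes called) 17 of 32 had an unadjusted p under 0.05, against 3.53% of genes, and the median was -0.58. Hapln2 (-0.92 ± 0.28) and Mobp (-0.80 ± 0.28) had the smallest p-values there (adjusted p 0.999 for each, edgeR), and the 9 genes named throughout ranged from -0.80 (Mobp) to 0.027 (Olig2). KO and WT ranges were apart for no member. With no low-count filter 12 were called lower, beside 138 of 25294 genes called in either direction. In the male cortex (0.0103% called) 11 of 26 had an unadjusted p under 0.05, against 2.95%, with a median of 0.36. Trf (0.61 ± 0.16) and Mag (0.63 ± 0.19) had the smallest p-values, and the KO libraries lay above the WT libraries for 6 members, against 4.03% of genes.

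In the male amygdala (0.00706% called) all 32 members were negative, with a median of -0.81, and 1 had an unadjusted p under 0.05, against 2.85% of genes. Olig1 (-0.46 ± 0.19) and Sox10 (-0.66 ± 0.31) had the smallest p-values, while Mobp had the lowest value of the 9 genes (-1.30 ± 0.84). That error belongs to the KO minus WT difference. The spread within groups is seen in the myelin mean, 4.97 ± 0.563 in KO and 5.71 ± 0.903 in WT (SD, n = 3 each). The library means of astrocyte genes (-0.393) and precursor genes (-0.182) were lower too, with every KO library below every WT library, and their part was not tested. In the female ventral striatum (0% called) all 32 were negative as well, with a median of -0.53, and 4 had an unadjusted p under 0.05, against 2.13% of genes. Olig1 (-0.68 ± 0.17) and Tmem125 (-1.19 ± 0.42) had the smallest p-values, and the 9 genes lay between -0.68 and -0.50. In the female dorsal striatum (0% called) 31 members were positive, with a median of 0.43 and 1 at an unadjusted p under 0.05, against 2.25% of genes. Enpp2 (1.88 ± 0.66) and Car2 (0.47 ± 0.26) had the smallest p-values. Without WT mouse 23, whose region is in doubt, the members' median was 0.13 with none called, and the KO minus WT difference of the myelin mean went from 0.532 to 0.121. Choroid plexus means were 2.06 to 6.16 in KO and 0.293 to 3.93 in WT, and their part was not tested.

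The remaining 5 comparisons held less. The median was 0.062 in the male dorsal striatum (0% called; Cntn2 0.21, Enpp2 -0.77) and 0.22 in the male ventral striatum (0% called; Opalin 0.54, Mag 0.45), with no member at an unadjusted p under 0.05 in either, against 1.91% and 9.84% of genes. In the male dorsal striatum without KO mouse 10, whose region is in doubt, the median was 0.33 with none called, and the difference of the myelin mean went from -0.0363 to 0.274. The median was -0.37 in the female amygdala (0% called; Cntn2 -0.37, Enpp2 1.82) and 0.056 in the female dorsal hippocampus (0.00707% called; Enpp2 -1.90, Olig2 0.19), again with none, against 2.97% and 1.93% of genes. In the female cortex (0.0398% called) it was 0.16, and 1 of 27 members had an unadjusted p under 0.05, against 10.6% of genes. Apod (0.51) and Ndrg1 (0.41) had the smallest p-values there.

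With both sexes in the fit, none of the members passed edgeR's test in any of the 7 regions. In the prefrontal cortex, where 0.0925% of genes were called, 28 of 32 had an unadjusted p under 0.05, against 8.63% of genes, and the median was 1.25 (0.0094 over all genes). Qdpr (1.03 ± 0.19) and Mog (1.55 ± 0.29) came closest, with an adjusted p of 0.0519 each (edgeR), and the 9 genes lay between 0.39 (Olig1) and 1.55. DESeq2 called 9 members, among 40 of 11894 genes. The edgeR count was 16 without male KO mouse 1 (32 of 11217 genes called). No male KO library is left in that fit, so its KO difference comes from the female libraries alone. The count was 14 without male WT mouse 12 (102 of 11952). It was 7 without male WT mouse 3 (25 of 11883) and 1 without female WT mouse 23 (76 of 11956). Without KO mice 1 and 5, the libraries of doubtful region, Trf was called (2.00), beside 0.0185% of genes, again with the KO difference from females alone.

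In the other 6 regions 0.00657% to 0.00947% of genes were called, and DESeq2 called no member. The numbers of members at an unadjusted p under 0.05 were 4 in the cortex (median 0.26; Ppp1r14a 1.01, Mobp 0.56), 2 in the ventral striatum (-0.12; Olig1 -0.40, Nkx6-2 -0.48) and 1 in the amygdala (-0.63; Olig1 -0.36, Cldn11 -0.78), against 6.46%, 7.29% and 3.52% of genes. There were none in the dorsal striatum (0.25; Myrf 0.33, Cntn2 0.20), the dorsal hippocampus (-0.22; Enpp2 -1.07, Hapln2 -0.63) and the ventral hippocampus (0.31; Myrf 0.64, Hapln2 0.76), against 1.54%, 2.84% and 5.01% of genes. The genes in brackets are those with the smallest p-values. No member was called in the dorsal striatum (median 0.23, 0.00678% of genes called) or the ventral hippocampus (0.093, 0.00904%) without the libraries of doubtful region.

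Whether the KO difference itself depended on sex was tested as an interaction, the male difference minus the female difference. None of the members passed edgeR's test in any region, and 0% of genes did. In the prefrontal cortex 24 of 32 had an unadjusted p under 0.05, against 4.39% of genes, and the median was -1.27. Trf (-1.95 ± 0.38) and Anln (-2.57 ± 0.51) had the smallest p-values (adjusted p 0.997, edgeR), in a fit where the lone male KO library was taken to vary like the others. DESeq2 called 1 member there, the 1 gene called of 11894.

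In the ventral hippocampus 7 of 31 members had an unadjusted p under 0.05, against 6.63% of genes, with a median of 0.93. Without the library of female KO mouse 6, 12 of 31 members were called, beside 0.136% of genes, all with a male difference above the female one, and the median was 1.89. They were Mbp (1.89), Mobp (2.47), Mog (2.75), Mag (2.57), Cnp (1.66), Mal (1.96), Cldn11 (2.59), Trf (2.20), Enpp2 (2.06), Ugt8a (2.60), Fa2h (2.87) and Myrf (2.51). The call thus depended on whether a library with striatal markers was counted as ventral hippocampus.

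In the ventral striatum 7 members had an unadjusted p under 0.05 for the interaction, against 3.84% of genes, with a median of 0.74 and the smallest p-values for Tmem125 (1.67) and Fa2h (1.20). The dorsal striatum had 1 (median -0.35; Enpp2 -2.65, Anln -0.65; 4.76% of genes), and the cortex 1 (0.24; Fa2h 1.28, Trf 0.74; 5.41% of genes), while the amygdala (-0.47; Enpp2 -2.28, Nkx6-2 -1.56; 4.42% of genes) and the dorsal hippocampus (-0.59; Mal -1.02, Cnp -0.87; 1.33% of genes) had none. Outside the prefrontal cortex DESeq2 called no member. With the 2 dorsal striatum libraries of doubtful region left out, the median there was 0.21, with 31 of 32 members positive and none called (0% of genes).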

How the data were processed

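Gene counts were deposited by the authors as a table for each sex; per the submitters' processing notes, reads were handled with STAR 2.5.2a, SAMtools 1.1 and HTSeq 0.6.1 on GRCm38. From the raw counts, CPM used column totals and log2 values a pseudocount of 1. Tests were edgeR 4.0.16 quasi-likelihood fits (TMM, filterByExpr with a minimum count of 10 and total of 15) in R 4.3.3, adjusted over all genes, with a threshold of 0.05. Region fits covered the deeper and shallower sets apart, with the sex-by-genotype groups as covariate. The mouse, given in the labels, pairs the libraries across regions: over 69 same-mouse pairs of the deeper set deviations correlated at 0.0491 on average, and over 24 of the shallower set at -0.0143. Over pairs of different mice of the same sex and genotype the averages were -0.0230 and 0.00708. The alternatives were DESeq2's size factors, no low-count filter, the DESeq2 1.42.0 Wald test, the mouse as a block, each library or mouse left out and, chosen after seeing the data, fits without libraries at odds with their labels. The scripts were tested on simulated data. The members, gene lists and tests were chosen with earlier results of these data known. Named throughout are 9 members (5 myelin proteins, 4 transcription factors), in a range where none was called. Added were the 4 with the smallest adjusted p and the 2 largest changes among called members, or else the 2 with the smallest p. Of the 8 non-members most like the myelin mean, the gene ranking first is not reported here. SEs are the log2 fold change over the square root of edgeR's F. Gene positions and exon lengths are from GENCODE M21.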

Additional observations from a re-analysis of the deposited data

How the results depend on the processing

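Counts of called members are given below where they moved by over 1.5 times. DESeq2's size factors moved no count. With no low-count filter the count was 1 for ventral striatum against dorsal hippocampus (8445 of 33476 genes called) and 21 for prefrontal cortex against cortex (4285 of 27418). It was 9 for prefrontal cortex (3326 of 27418) and 14 for cortex (3292 of 27418), each against ventral hippocampus. For KO against WT it was then 12 in the male dorsal hippocampus (138 of 25294 genes) and 16 in the male ventral hippocampus (161 of 21446). With both sexes it was 23 in the prefrontal cortex (367 of 23179), 2 in the cortex (10 of 22924) and 2 in the ventral hippocampus (101 of 23674). For the interaction it was 10 in the prefrontal cortex (32 of 23179), with its lone male KO library, and 8 in the ventral hippocampus (117 of 23674). The DESeq2 Wald test gave 10 for dorsal against ventral striatum (2235 of 14593 genes) and 5 for ventral striatum against dorsal hippocampus (7964 of 14593). It gave 3 in the male ventral hippocampus (5 of 10040), 9 in the prefrontal cortex with both sexes (40 of 11894) and 1 for its interaction (1 of 11894). With the mouse as a replicate block, pairing regions within a mouse, the count was 2 for dorsal against ventral striatum (1938 of 14593 genes). It was 1 for ventral striatum (7896 of 14593) and 5 for amygdala (5705 of 14593), each against dorsal hippocampus. For cortex against ventral hippocampus it was 3 (2924 of 10619). The block moved no other count by that much. Fits without the libraries whose neuron markers go against the labelled region were a choice made after seeing the data. The counts were then 16 for dorsal against ventral striatum (3310 of 14662 genes) and 12 for the ventral hippocampus interaction (15 of 11061). Against ventral hippocampus they were 5 for prefrontal cortex (3003 of 10749) and 3 for cortex (3191 of 10749). In the prefrontal cortex with both sexes the count was 1 (2 of 10816). No male KO library is left there, so no such interaction could be fitted. Leaving out each mouse or library in turn gave ranges of 0 to 18 for dorsal against ventral striatum, 13 to 24 for ventral striatum against amygdala, 1 to 6 for ventral striatum and 2 to 25 for amygdala against dorsal hippocampus, 2 to 5 for prefrontal cortex and 2 to 13 for cortex against ventral hippocampus. The ranges were 2 to 22 in the female prefrontal cortex, 0 to 1 in the male and in the female ventral hippocampus, 0 to 16 in the prefrontal cortex with both sexes and 0 to 12 for the ventral hippocampus interaction. These ranges are of members alone, without the calls over all genes. The causes were not tested. No myelin mean by region, and no KO minus WT difference of it, moved by over 1 SD under the other pseudocounts, TMM scaling, thinning to the smallest library, or the list without the 10 members that other brain cells also express. Depth limits Tmem125, Nkx6-2 and Gjb1 in the shallower set, and to a lesser degree Hapln2, Opalin and Ppp1r14a.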

Other observations

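The myelin mean was higher in females than in males in the amygdala. It was 6.41 ± 0.617 in 5 female and 5.34 ± 0.785 in 6 male libraries (SD), 1.07 apart. In the prefrontal cortex it was 6.31 ± 0.871 in 5 libraries labelled female and 5.44 ± 0.139 in 3 male libraries. In the other 5 regions the female minus male difference lay between -0.173 and 0.234. The myelin means of the amygdala libraries overlapped between the sexes, at 5.67 to 7.15 in females and 4.52 to 6.65 in males. Choroid plexus means did not overlap there, at 2.29 to 6.48 in the female and 1.28 to 2.14 in the male libraries. The part of the choroid plexus was not tested. These differences between the sexes were not tested, and the prefrontal value includes the library of mouse 23, whose sex-chromosome genes go against its label.

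Markers of precursor cells were also averaged by region. In the deeper set the mean log2(CPM + 1) of the 12 markers was 4.76 ± 0.187 in the ventral striatum (SD), 4.55 ± 0.173 in the amygdala, 4.54 ± 0.260 in the dorsal striatum and 4.35 ± 0.195 in the dorsal hippocampus. In the shallower set it was 4.49 ± 0.260 in the prefrontal cortex, 4.22 ± 0.216 in the ventral hippocampus and 3.74 ± 0.225 in the cortex. The order of these means was not tested.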
